A study of Mus musculus with 12 samples.

Results

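Serpins are a family of protease inhibitors that act by a trap. A target protease cuts an exposed loop of the serpin, the loop inserts into the body of the protein, and the protease stays bound and inactive. Some members have lost this activity and serve as hormone carriers, as the collagen chaperone HSP47 (Serpinh1) or as the secreted factor PEDF (Serpinf1). Clade B members stay mostly inside the cell, whereas most of the other clades are secreted, and several single human genes have become clusters of close copies in mice. Medullary thymic epithelium is known for expressing many genes of other tissues, each in few cells, and cortical thymic epithelium for the lysosomal proteases that prepare peptides for T-cell selection.

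The serpins analysed here were the 63 gene symbols, of 23306 in the deposited table, that begin with Serpin, a clade letter from a to i and a number. This rule uses the symbols alone, but it was set with earlier results of these data known. Of the 63, 41 had enough counts to be tested, among 14792 genes tested in all, and 22 did not. Of these 22, Serpina3a and Serpini2 had no count in any library, Serpina1f, Serpina4-ps1 and Serpina6 had 1 or 2 counts in all, and 17 had more counts but too few libraries with enough of them.

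The RNA came from thymic stroma of C57BL/6 KitL-tomato mice, in which a tomato reporter marks expression of Kit ligand, a growth factor for blood and T-cell progenitors. All cells were sorted as negative for lineage markers and for DAPI, a stain of dead cells. Tomato+ VEC were vascular endothelial cells, EpCAM- CD31+ and positive for the reporter, and tomato- VEC were cells of the same EpCAM- CD31+ gate without it. Tomato+ cTEC were cortical epithelial cells, EpCAM+ CD31- UEA1- Ly51+ and reporter-positive, and tomato- mTEC were medullary epithelial cells, EpCAM+ CD31- UEA1+ Ly51- and reporter-negative. Reporter and compartment differ together between the epithelial groups, so their contributions cannot be told apart. Each group had 3 libraries of amplified poly(A) RNA. The sources used here give neither the age of the mice nor whether replicates were separate animals, so a p-value reflects only how much these libraries vary, which may be technical.

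Total counts were 8388869 to 11807130 per library. Defining markers of the gated cells were present in every group. The summed level of 5 endothelial markers was 6084 to 6693 CPM (counts scaled to library size by TMM) in tomato+ VEC and 6225 to 8863 CPM in tomato- VEC, and that of 5 thymic epithelial markers was at most 1.18 CPM in both. In tomato+ cTEC the endothelial sum was 1.90 and 18.9 CPM in replicates 3 and 1, against 280 CPM in replicate 2. In tomato- mTEC, Lyz2, a myeloid gene, stood at 315 to 393 CPM. Of the other macrophage and dendritic markers there, Csf1r stood at 4.53 to 18.0 CPM, Emr1 at 0 to 1.68 and Itgax at 0 to 1.60. In tomato+ cTEC, Lyz2 stood at 1.28, 0 and 141 CPM, and 6 thymocyte markers summed to 46.2 to 89.9 CPM. The 6 fibroblast and pericyte markers summed to 1903 to 2266 CPM in tomato+ cTEC and 710 to 945 CPM in tomato- mTEC. In VEC this sum was at most 53.7 CPM. It was mostly Dcn in tomato+ cTEC and Acta2, Rgs5 and Dcn in tomato- mTEC. The 5 medullary markers summed to 783 to 1354 CPM in tomato+ cTEC and 4898 to 6449 CPM in tomato- mTEC. The 4 cortical markers summed to 1714 to 2057 and 42.9 to 106 CPM. Platelet markers summed to 174 CPM in tomato- VEC replicate 1, against at most 9.35 CPM in the other libraries of that group. The VEC groups also differed in lymphatic endothelial markers. Lyve1 was at 0 in tomato+ VEC and 36.4 to 78.2 CPM in tomato- VEC, and Pdpn at 0.104 to 0.392 and 3.45 to 48.2 CPM. Flt4 overlapped, at 48.3 to 61.4 and 17.7 to 72.7 CPM, and Prox1 was at most at 4.34 CPM in VEC. The part of these cells in the serpin results was not tested, apart from the values given beside the results below. In bulk samples like these, fewer cells of a type and less RNA per cell cannot be told apart.

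Endothelial and epithelial cells each carried a serpin set of their own on top of a shared one. Serpinb6a, Serpinb1a, Serpinb9 and Serpinh1 were present in all 12 libraries. Apart from Serpinb8 and 1 library of Serpinb10, the tested clade B genes of chromosome 1 were at or near 0 in endothelium, and they were present in epithelium. The tested copies of Serpina1, which encode antitrypsin, were present in most endothelial libraries and at most at 3.14 CPM in epithelium. Tomato+ VEC replicate 1 held at most 1 count of any copy, and in tomato- VEC replicate 2 Serpina1a and Serpina1c were at 0.106 and 0 CPM. A library of tomato+ VEC held on average 34.7 ± 2.52 serpins with at least 1 count, and of tomato- VEC 34.3 ± 2.31 (SD, n = 3 each). In tomato+ cTEC the number was 43.7 ± 1.53 and in tomato- mTEC 48.7 ± 1.53 (SD, n = 3 each). Serpins with a group mean of at least 1 CPM numbered 24, 27, 31 and 45 in this order of groups. Over all genes these numbers were 11438, 11846, 13267 and 15197, so a rise in this order was not particular to serpins. The summed serpin level was 1558 ± 186 CPM in tomato+ VEC, 2590 ± 489 CPM in tomato- VEC, 1968 ± 200 CPM in tomato+ cTEC and 3933 ± 677 CPM in tomato- mTEC (SD, n = 3 each). The libraries of tomato+ VEC all lay below those of tomato- VEC in this sum, and those of tomato+ cTEC all lay below those of tomato- mTEC.

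**Figure D1:**
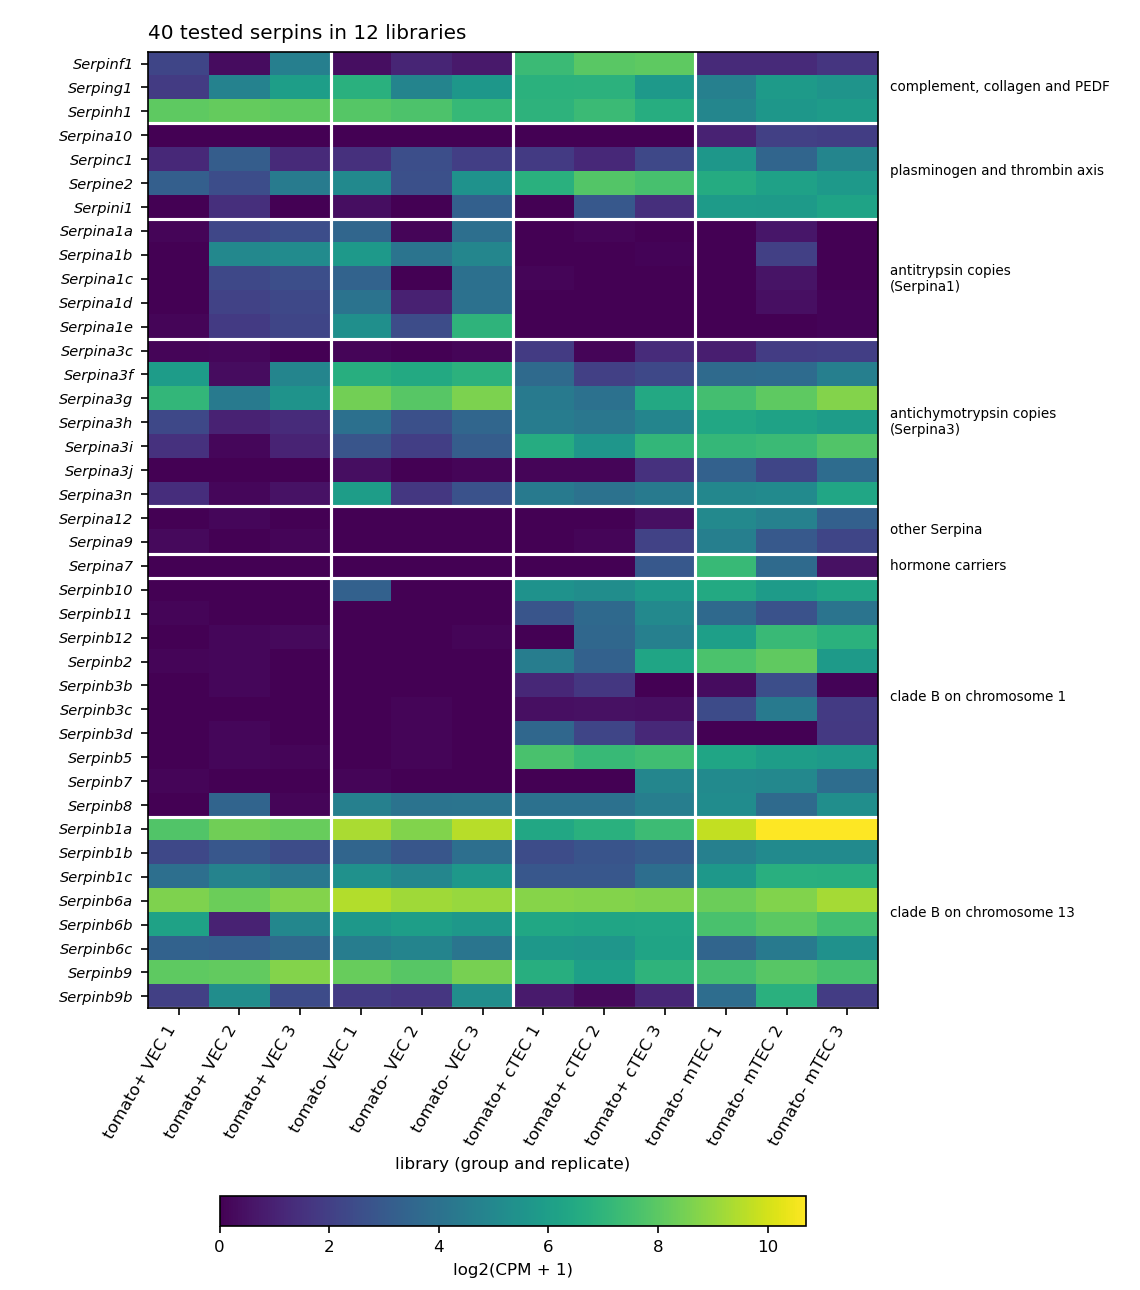
Level of 40 tested serpins (rows, grouped by role) in the 12 libraries (columns), as log2(CPM + 1) in colour. The clade B genes of chromosome 1 are low in the 6 VEC libraries, with the exception of Serpinb8 and of Serpinb10 in tomato- VEC replicate 1, and the Serpina1 copies are low in the 6 TEC libraries.

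**Figure D2:**
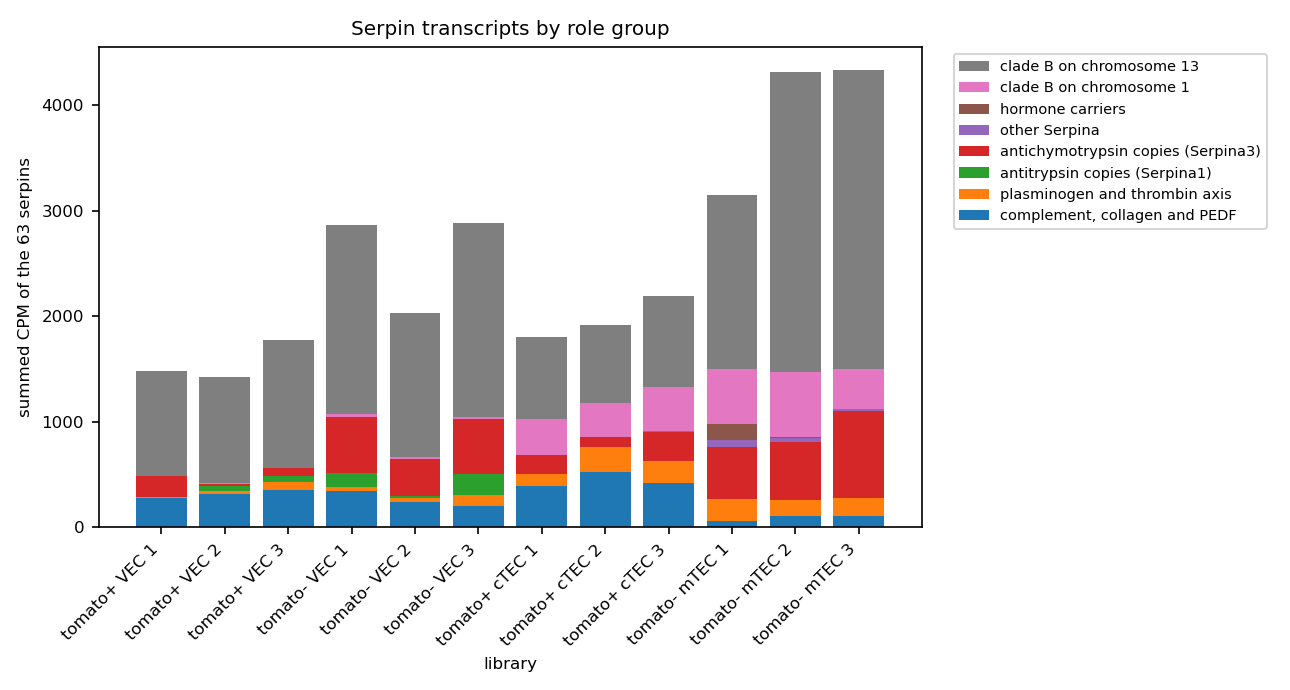
Summed CPM of the 63 serpins in each library (bars), split by role group (colours). Clade B genes of chromosome 13 make up the largest share in all 12 libraries, and the chromosome 1 group is visible in the TEC libraries.

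Per length of transcript, on the scale of the deposited RPKM (reads per kilobase of transcript, scaled to library size), Serpinb6a had the highest mean in 3 groups. It stood at 207 ± 33.0 RPKM in tomato+ VEC, 345 ± 37.6 in tomato- VEC and 282 ± 18.1 in tomato+ cTEC (SD, n = 3 each). Serpinb1a followed in tomato+ VEC with 133 ± 28.3 RPKM, below every library of Serpinb6a, and in tomato- VEC with 302 ± 94.4 RPKM, where the libraries of the pair overlapped. In tomato+ cTEC the second place was held by Serpinf1 with 165 ± 41.8 RPKM, followed by Serpine2 (95.1 ± 31.7 RPKM) and Serpinb5 (74.4 ± 11.3 RPKM), whose libraries overlapped in this order (SD, n = 3 each). In tomato- mTEC, Serpinb1a led with 759 ± 248 RPKM, above every library of Serpinb6a at 282 ± 97.6 RPKM (SD, n = 3 each). Next in tomato- mTEC came Serpina3g with 150 ± 63.7 RPKM and Serpinb6b with 119 ± 20.2 RPKM, which overlapped each other.

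Within endothelium, tomato+ VEC were compared with tomato- VEC. No serpin passed the edgeR test at an adjusted p under 0.05, where 1.65% of all genes tested did (0.568% higher and 1.08% lower). At an unadjusted p under 0.05, edgeR gave 9 of 41 serpins (22.0%, against 16.2% of all genes). At an adjusted p under 0.05, DESeq2 called 6 (that tool called 8.33% of all genes) and limma voom called 2 (4.06%). The median difference of the 41 was log2 -0.69, against 0 over all genes tested, and 24 of 41 lay below 0. The 9 serpins, which were picked out after their values were seen, were Serpina3g, Serpina3h, Serpina3i, Serpina3n, Serpina1e, Serpinb1a, Serpinb6a and Serpinb10 with lower means in tomato+ VEC, and Serpinf1 with the higher mean there. Of the 6 calls of DESeq2, 5 were lower in tomato+ VEC and 1, Serpinf1, was higher.

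Within epithelium, of the 41 serpins, 2 rose and 6 fell in tomato+ cTEC relative to tomato- mTEC, where 2.73% of all genes rose and 5.1% fell (7.83% called in all). Serpinf1 and Serpinh1 rose. Serpinb1a, Serpinb1b, Serpinb1c, Serpinb9, Serpina3g and Serpina12 fell. The median difference of the 41 was log2 -1.76, against 0.02 over all genes tested. Members that passed the low-count filter through tomato- mTEC alone, such as Serpina12 and Serpina10, could only be lower in tomato+ cTEC. The counts and the median therefore describe the tested members and not all 63.

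The third comparison set the reporter-positive populations against each other. Of the 41 serpins, 7 rose and 11 fell in tomato+ VEC relative to tomato+ cTEC, where 9.45% of all genes rose and 12.4% fell (21.9% in all). The median difference was log2 -2.32, against -0.11 over all genes. With both VEC groups set against both TEC groups, 9 serpins rose and 20 fell in endothelium, where 14.4% of all genes rose and 21.8% fell (36.3% in all). The median was log2 -2.69 for the serpins and -0.18 for all genes, and -0.31 for all genes with relative log expression scaling. These comparisons share libraries with each other and with the previous pair. A serpin that passed the low-count filter only through the libraries of 1 cell type had to differ, so the counts describe the tested members and not all 63.

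**Figure D3:**
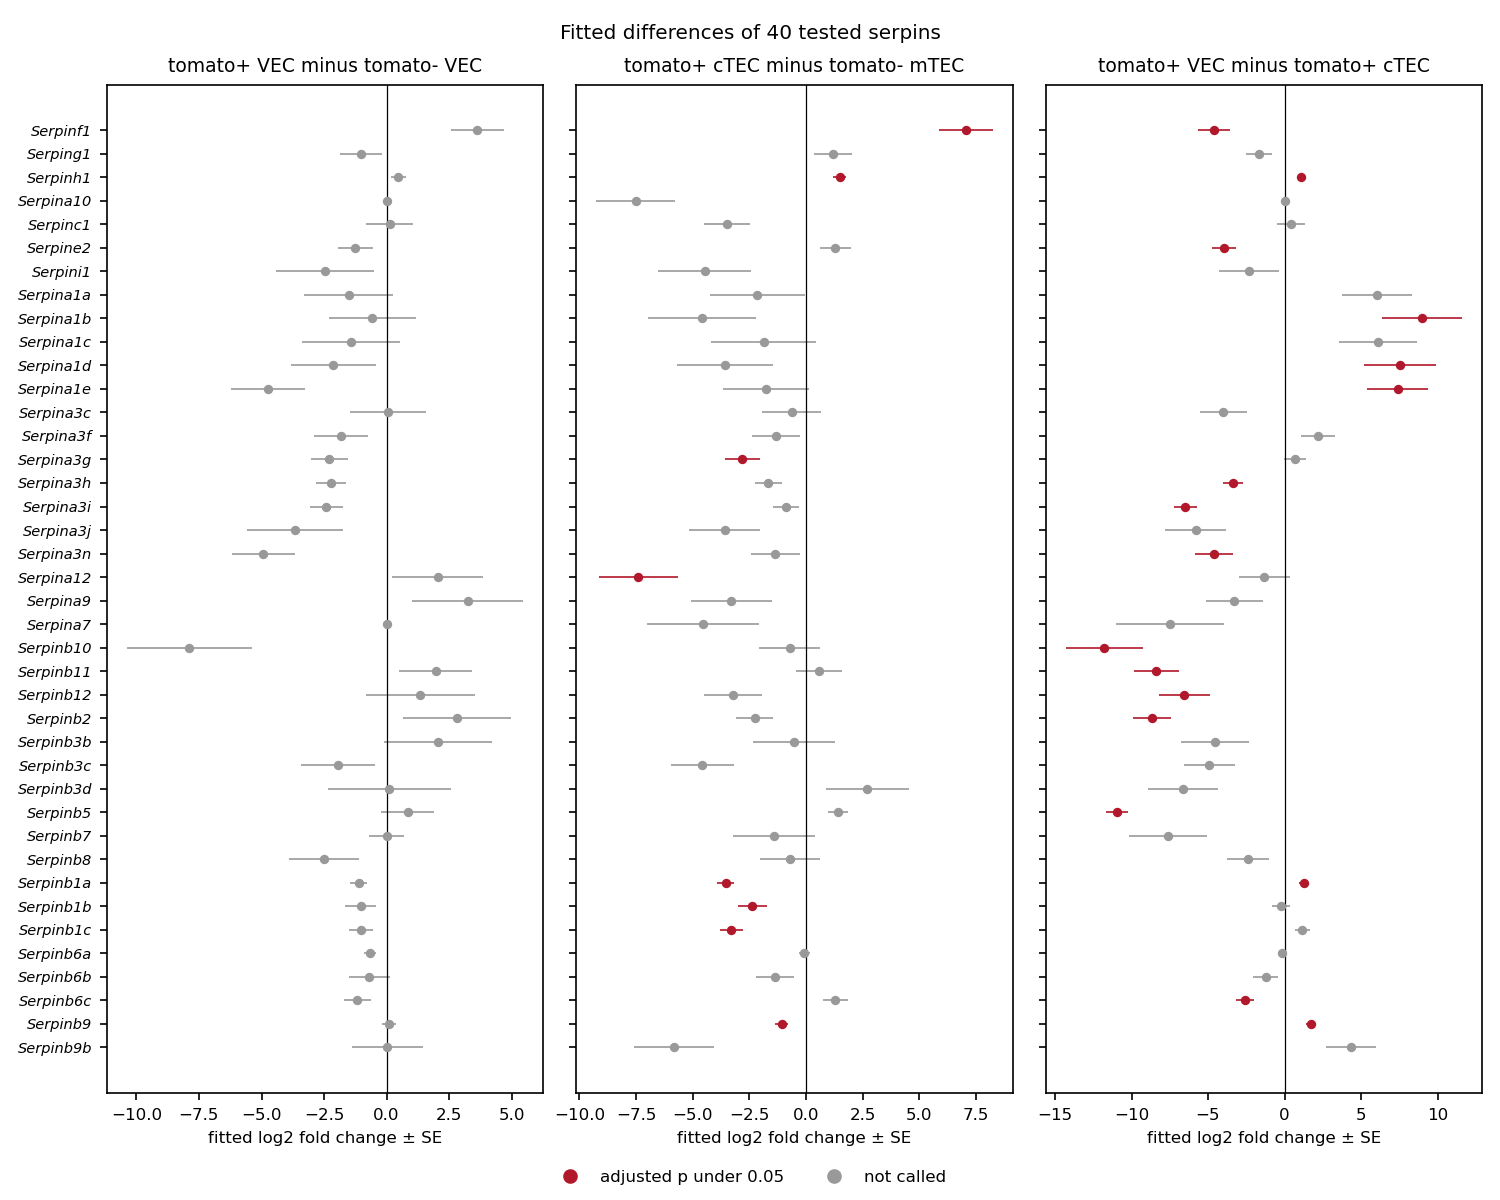
Fitted log2 fold change of 40 tested serpins with its standard error (points and bars) in tomato+ VEC minus tomato- VEC, tomato+ cTEC minus tomato- mTEC and tomato+ VEC minus tomato+ cTEC. Red points had an edgeR adjusted p under 0.05, which was 0, 8 and 17 of those plotted in the 3 panels. Values of genes with a group at or near 0 depend on the prior count of the fit.

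Serpinf1 encodes PEDF, a secreted inhibitor of vessel growth in other tissues. It stood at 156, 247 and 265 CPM in tomato+ cTEC, against 1.45, 1.40 and 2.16 CPM in tomato- mTEC. The groups did not overlap, and the difference was log2 7.04 (SE 1.19, edgeR adjusted p = 0.00496), and the call held whichever library was left out. In tomato+ VEC it stood at 3.74, 0.262 and 23.4 CPM, all below tomato+ cTEC (log2 -4.60, SE 1.05, edgeR adjusted p = 0.00802). In tomato- VEC it was at 0.334 to 1.17 CPM, so 1 library, tomato+ VEC replicate 3, carried 85.4% of the level in tomato+ VEC. Over both VEC groups it fell by log2 2.90 relative to TEC (SE 0.73, edgeR adjusted p = 0.00815). Dcn, a gene of fibroblasts, moved with it, at 1559 to 2057 CPM in tomato+ cTEC and 116 to 370 CPM in tomato- mTEC. Of the 6 fibroblast and pericyte markers, 1 of 6 was called higher in tomato+ cTEC, namely Dcn, while Pdgfra was at 1.08 to 9.26 CPM and Col1a1 at 0.260 to 10.2 CPM there. The part of fibroblasts in the Serpinf1 level was not tested.

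Serpinh1 encodes HSP47, which binds procollagen in the endoplasmic reticulum. It stood at 265, 287 and 264 CPM in tomato+ VEC, 236, 210 and 146 CPM in tomato- VEC, 121, 158 and 102 CPM in tomato+ cTEC and 29.2, 49.8 and 57.8 CPM in tomato- mTEC. The groups descended in this order without overlap of their libraries between tomato+ and tomato- VEC or between tomato+ cTEC and tomato- mTEC, while tomato- VEC replicate 3 lay within tomato+ cTEC. It rose in tomato+ cTEC relative to tomato- mTEC (log2 1.47, SE 0.30, edgeR adjusted p = 0.0130), a call lost without tomato+ cTEC replicate 2 (adjusted p = 0.0518), the library that also held endothelial transcripts. It rose in tomato+ VEC relative to tomato+ cTEC (log2 1.10, SE 0.29, edgeR adjusted p = 0.0187), a call lost without tomato+ cTEC replicate 3 (adjusted p = 0.0733). It rose in both VEC groups relative to TEC (log2 1.61, SE 0.21, edgeR adjusted p = 9.76e-05). Between tomato+ and tomato- VEC the difference was log2 0.46 (SE 0.29, edgeR adjusted p = 0.473). Among 22 collagen chains and folding genes, 8 rose and 7 fell in endothelium relative to TEC, with a median of log2 0.53 (14.4% and 21.8% of all genes). Col4a1 (log2 3.25, edgeR adjusted p = 2.53e-08) and Col4a2 (log2 3.59, edgeR adjusted p = 5e-08), the chains of basement membrane collagen, rose, and Col6a1 fell by log2 7.84 (edgeR adjusted p = 1.2e-07).

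Serping1 encodes the C1 inhibitor of the complement and contact systems. It stood at 2.60, 25.9 and 63.5 CPM in tomato+ VEC, 110, 27.8 and 49.3 CPM in tomato- VEC, 115, 118 and 55.2 CPM in tomato+ cTEC and 24.7, 56.3 and 46.1 CPM in tomato- mTEC. The libraries of all 4 groups overlapped, and the difference between tomato+ VEC and tomato+ cTEC was log2 -1.65 (SE 0.85, edgeR adjusted p = 0.195). C1s, a protease that it inhibits, averaged 1.02 ± 0.404 CPM in tomato+ VEC and 53.0 ± 21.6 CPM in tomato- VEC (SD, n = 3 each) and fell by log2 5.66 (SE 0.58, edgeR adjusted p = 0.000426).

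The promoters of Serpinf1 and Serpinh1 are shown because these 2 genes were the serpins that rose in cortical epithelium. Each window runs from 250 bases before to 50 bases after the start site in RefSeq (GRCm38.p6), at chr11:75422574-75422873 on the minus strand for Serpinf1 and chr7:99353190-99353489 on the minus strand for Serpinh1. Capitals mark a match to one of 5 motifs searched on both strands, with N for any base. The TATA box was searched as TATAAA. The AP-1 element was searched as TGANTCA. The GC box was searched as GGGCGG. The inverted heat shock unit was searched as GAANNTTC. The STAT element was searched as TTCNNNGAA.
Serpinf1: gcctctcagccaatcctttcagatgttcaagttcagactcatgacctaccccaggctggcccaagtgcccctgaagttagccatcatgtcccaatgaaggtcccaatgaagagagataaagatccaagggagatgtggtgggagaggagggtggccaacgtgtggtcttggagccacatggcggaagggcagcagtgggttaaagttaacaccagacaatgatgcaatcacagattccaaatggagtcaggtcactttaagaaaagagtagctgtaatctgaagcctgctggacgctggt
Serpinh1: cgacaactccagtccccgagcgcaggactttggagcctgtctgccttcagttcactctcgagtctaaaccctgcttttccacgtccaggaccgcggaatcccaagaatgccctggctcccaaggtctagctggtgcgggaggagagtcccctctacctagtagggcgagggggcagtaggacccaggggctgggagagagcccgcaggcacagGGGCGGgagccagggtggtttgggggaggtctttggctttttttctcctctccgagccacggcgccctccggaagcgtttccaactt
Serpinh1 held a GC box that began 37 bases before the start site, and Serpinf1 held none of the 5 motifs in this window.

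**Figure D4:**
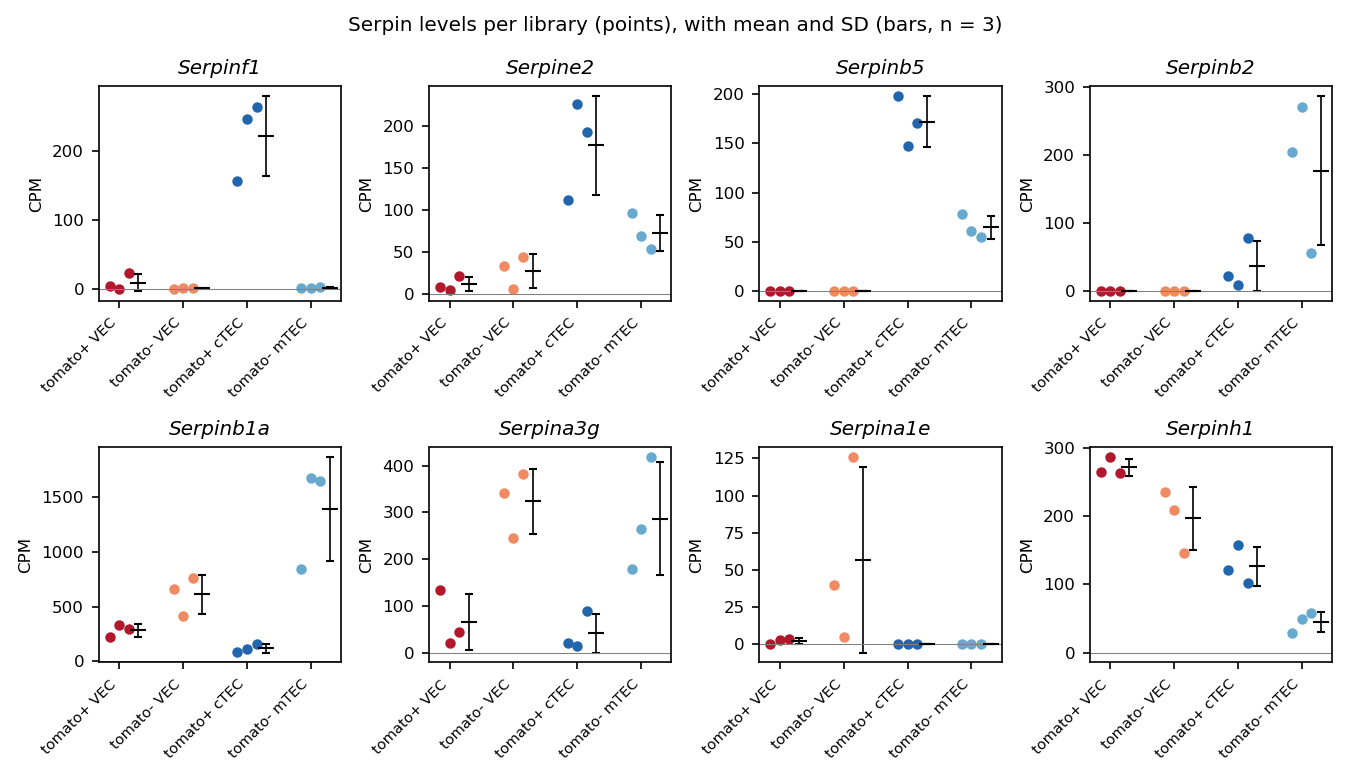
CPM of 8 serpins in each library (points, 3 per group) with the mean and SD beside them (bars), by group. Serpinf1 is high in tomato+ cTEC alone, Serpinb5 and Serpinb2 are at or near 0 in both VEC groups, and Serpina1e is spread widely among the tomato- VEC libraries.

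Among the serpins that act on plasminogen activators and thrombin, Serpine2 was higher in epithelium. It encodes protease nexin 1, an inhibitor of thrombin and plasminogen activators at the cell surface. It stood at 8.52, 4.84 and 20.8 CPM in tomato+ VEC, 33.0, 5.10 and 43.3 CPM in tomato- VEC, 111, 226 and 192 CPM in tomato+ cTEC and 95.7, 68.8 and 53.3 CPM in tomato- mTEC. Every VEC library lay below every TEC library, and Serpine2 fell in VEC relative to TEC (log2 -2.69, SE 0.51, edgeR adjusted p = 0.00135) and in tomato+ VEC relative to tomato+ cTEC (log2 -3.95, SE 0.76, edgeR adjusted p = 0.00280). The tomato+ cTEC libraries were all above those of tomato- mTEC, a difference of log2 1.28 (SE 0.68) that did not pass (edgeR adjusted p = 0.331).

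Further serpins of the plasminogen and thrombin axis were low outside medullary epithelium. Serpini1, or neuroserpin, an inhibitor of tissue plasminogen activator in the nervous system, stood at 57.0, 56.7 and 74.1 CPM in tomato- mTEC and at most at 8.85 CPM in any other library. Serpinc1, or antithrombin, stood at 50.4, 10.2 and 28.7 CPM in tomato- mTEC and between 1.35 and 7.85 CPM elsewhere. Serpina10, which inhibits coagulation factor X with protein Z, had counts in tomato- mTEC alone, at 1.06, 3.02 and 2.89 CPM. EdgeR called none of the 3 between tomato+ cTEC and tomato- mTEC (adjusted p = 0.240 for Serpini1, 0.0575 for Serpinc1 and 0.0565 for Serpina10), although their libraries did not overlap. Limma voom called all 3 lower in tomato+ cTEC (adjusted p = 0.0165, 0.0270 and 0.000392 in that order). EdgeR on these 2 groups alone did so too (adjusted p = 0.0279, 0.0144 and 0.0243), and DESeq2 called Serpinc1 (adjusted p = 0.00105). These settings also called more of all genes than edgeR's 1158 of 14792. Limma voom called 2219 of 14792, the fit of 2 groups 2487 of 14057 and DESeq2 1973 of 14792. Serpina10 passed the low-count filter through tomato- mTEC alone and could only be lower in the other groups. EdgeR did not call Serpina10 in VEC against TEC, where its estimate was not usable (log2 -3.76, SE 5003) with 3 groups at 0. Limma voom called it lower in VEC (adjusted p = 0.00297) and DESeq2 did not (adjusted p = 0.398). Serpind1, or heparin cofactor II, was not tested and stood at 15.2 CPM in tomato- VEC replicate 3 and at most at 1.45 CPM in the other libraries. Serpina5, Serpine3 and Serpinf2, the inhibitor of plasmin, were not tested either and had 15 to 70 counts over all libraries.

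Antitrypsin, the product of Serpina1, protects tissue against neutrophil elastase and is made mainly by liver. All 5 tested copies rose in VEC relative to TEC, where 14.4% of all genes did; they passed the low-count filter through the VEC libraries and had to differ. Serpina1b, the copy with the most counts in tomato+ VEC, stood at 0, 31.0 and 34.5 CPM in tomato+ VEC, 52.2, 16.4 and 29.0 CPM in tomato- VEC, 0, 0 and 0.0866 CPM in tomato+ cTEC and 0, 3.14 and 0 CPM in tomato- mTEC. Serpina1e stood at 0.104, 2.48 and 3.75 CPM in tomato+ VEC, 39.5, 4.57 and 126 CPM in tomato- VEC, and 0 in all libraries of tomato+ cTEC, with a single count in tomato- mTEC. The tomato+ VEC libraries of Serpina1e lay all below those of tomato- VEC, and tomato+ VEC replicate 1 held at most 1 count of any copy. Tomato- VEC replicate 2 was the lowest library of its group for each of the 5 copies.

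In the test of VEC against TEC the edgeR adjusted p was 0.000697 for Serpina1e, 0.00608 for Serpina1b, 0.00656 for Serpina1d, 0.0128 for Serpina1a and 0.0191 for Serpina1c. The last of these calls was lost without tomato+ cTEC replicate 2 or 3 (adjusted p up to 0.0553). By summed counts Serpina1e was 1872-fold higher in VEC (95% counting interval 336 to 74006, from 1 count in TEC, counting error only), and 645-fold without tomato- VEC replicate 3. Of its VEC counts, 1520 were in tomato- VEC and 55 in tomato+ VEC, and edgeR's own estimate was log2 8.87 (SE 1.39). Against tomato+ cTEC, 3 copies rose in tomato+ VEC. Serpina1b was 686-fold higher (counting interval 123 to 27151, from 1 count in tomato+ cTEC; edgeR adjusted p = 0.0279), Serpina1d at least 25.4-fold (adjusted p = 0.0435) and Serpina1e at least 22.5-fold (adjusted p = 0.0245), where a count of 0 was set to 3 counts over the group. Without tomato+ VEC replicate 3, these folds were 448, at least 15.8 and at least 12.6 in the same order. All 3 calls depended on single libraries. Serpina1b was lost without any of the tomato+ cTEC libraries (edgeR adjusted p up to 0.0901). Serpina1e was lost without any of them or tomato+ VEC replicate 3 (up to 0.0644). Serpina1d was lost in 9 of the 12 leave-outs (up to 0.107), all but those of tomato+ VEC replicate 1, tomato- VEC replicate 2 and tomato- mTEC replicate 1. With limma voom, none of the 3 was called.

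Most liver genes were at or near 0 in endothelium. In the 6 VEC libraries Ttr and Fgb, which encode transthyretin and a fibrinogen chain, were at 0, and Alb, which encodes albumin, was at 0 to 0.131 CPM. Of 18 genes for proteins secreted by liver, 6 were at 0 in all tomato+ VEC libraries and 7 in all tomato- VEC libraries. The highest sum was 68.4 CPM in tomato+ VEC and 116 CPM in tomato- VEC, mostly Trf (transferrin) and, in tomato+ VEC, Hpx. The lowest sum in tomato+ VEC was 1.45 CPM, in replicate 1, the library almost without Serpina1 counts. Trf stood at 0.208, 35.4 and 18.7 CPM in tomato+ VEC, and Hpx at 0 in replicate 1 and 28.9 CPM in replicate 2. In tomato- VEC, Trf stood at 116, 70.0 and 57.6 CPM and Hpx at 0 in all libraries. Whether Serpina1 and these liver genes came from the same cells was not tested. Reads cannot be assigned to a copy with certainty. Of the 50-base words in Serpina1c transcripts, 74.2% occur in another gene, mostly in Serpina1a, and 57.6% of those in Serpina1a are shared. In the 4 libraries with at least 20 counts of Serpina1a, the count of Serpina1c was 91.6% to 105% of it. How the counts divide between copies is therefore uncertain.

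Serpina3 copies, the mouse counterparts of human antichymotrypsin, were present in every group but in different combinations. Serpina3g, known as Spi2A, an inhibitor of lysosomal cathepsins inside the cell, stood at 134, 19.7 and 44.2 CPM in tomato+ VEC, 341, 246 and 383 CPM in tomato- VEC, 19.4, 14.8 and 88.1 CPM in tomato+ cTEC and 179, 263 and 418 CPM in tomato- mTEC. The reporter-negative group was above the reporter-positive one within both cell types, with no overlap. It fell in tomato+ cTEC relative to tomato- mTEC (log2 -2.81, SE 0.76, edgeR adjusted p = 0.0442). This call was lost in 9 of the 12 leave-outs (up to 0.156), all but those of tomato+ VEC replicates 1 and 2 and tomato+ cTEC replicate 3. In tomato+ VEC relative to tomato- VEC the difference was log2 -2.29 (SE 0.75), which did not pass (edgeR adjusted p = 0.156). The difference between these contrasts was log2 0.52 (SE 1.01, edgeR adjusted p = 0.882).

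Serpina3f, a close copy of Serpina3g, stood at 59.9, 0.262 and 28.4 CPM in tomato+ VEC, 104, 90.0 and 116 CPM in tomato- VEC, 12.1, 3.04 and 4.07 CPM in tomato+ cTEC and 11.9, 12.6 and 23.7 CPM in tomato- mTEC. Tomato+ VEC replicate 2 lay below every other library. Serpina3f rose in VEC relative to TEC (log2 2.44, SE 0.78, edgeR adjusted p = 0.0277). This call was lost with limma voom (adjusted p = 0.129) and without tomato+ VEC replicate 1, tomato+ cTEC replicates 2 or 3 or tomato- mTEC replicates 1 or 2 (edgeR adjusted p up to 0.0686).

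Serpina3i, Serpina3h and Serpina3n were higher in epithelium. Serpina3i stood at 1.87, 0.131 and 1.07 CPM in tomato+ VEC, 6.01, 2.97 and 7.84 CPM in tomato- VEC, 98.1, 48.0 and 136 CPM in tomato+ cTEC and 140, 156 and 224 CPM in tomato- mTEC. Each group lay above the one before without overlap, and Serpina3i fell in VEC relative to TEC (log2 -5.71, SE 0.52, edgeR adjusted p = 5.09e-06) and in tomato+ VEC relative to tomato+ cTEC (log2 -6.47, SE 0.76, edgeR adjusted p = 9.52e-05). Serpina3h stood at 3.95, 1.05 and 1.5 CPM in tomato+ VEC, 14.7, 5.21 and 10.6 CPM in tomato- VEC, 21.3, 17.8 and 28.7 CPM in tomato+ cTEC and 85.4, 71.9 and 59.1 CPM in tomato- mTEC. It had the same order of groups, again without overlap, and fell in VEC relative to TEC (log2 -3.10, SE 0.44, edgeR adjusted p = 0.000191) and in tomato+ VEC relative to tomato+ cTEC (log2 -3.37, SE 0.64, edgeR adjusted p = 0.00268).

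Serpina3n, an extracellular inhibitor of granzyme B and cathepsin G in mice, stood at 1.66, 0.131 and 0.428 CPM in tomato+ VEC, 61.8, 2.34 and 5.49 CPM in tomato- VEC, 20.3, 15.3 and 20.3 CPM in tomato+ cTEC and 30.5, 33.8 and 79.4 CPM in tomato- mTEC. The high tomato- VEC library was replicate 1, where platelet markers (174 CPM), Lyz2 (43.2 CPM) and Prox1 (4.34 CPM) were also highest within the group. Serpina3n fell in tomato+ VEC relative to tomato+ cTEC (log2 -4.61, SE 1.25, edgeR adjusted p = 0.0201), a call lost without tomato+ VEC replicate 2 or 3 (adjusted p up to 0.0665), and in VEC relative to TEC (log2 -2.83, SE 0.81, edgeR adjusted p = 0.0166). Serpina3c and Serpina3j also fell in VEC relative to TEC (edgeR adjusted p = 0.00784 and 0.00685), and their highest TEC libraries held 2.97 and 12.8 CPM. Serpina3b, Serpina3k and Serpina3m were not tested and had their highest level in tomato- mTEC replicate 1, at 3.28, 13.2 and 22.6 CPM. Of the 50-base words in their transcripts, Serpina3h shares 21.9%, Serpina3i 15.9% and Serpina3g 15.5% with other genes, so the values of these copies are less certain than those of genes without close copies.

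The remaining Serpina genes described here had their highest library in tomato- mTEC. Serpina12, or vaspin, an inhibitor of kallikrein 7, stood at 0 to 0.131 CPM in VEC, 0, 0 and 0.346 CPM in tomato+ cTEC and 32.3, 25.3 and 8.66 CPM in tomato- mTEC. It fell in tomato+ cTEC relative to tomato- mTEC (log2 -7.40, SE 1.74, edgeR adjusted p = 0.0311), a call lost without tomato+ cTEC replicate 1 or 2 or any tomato- mTEC library (adjusted p up to 0.109). Serpina12 passed the low-count filter through tomato- mTEC alone and could only be lower in the other groups. By summed counts it was 559-fold lower in VEC than in TEC (95% counting interval 100 to 22126, from 1 count in VEC), and 331-fold without tomato- mTEC replicate 1. Of the TEC counts, 661 were in tomato- mTEC and 4 in tomato+ cTEC. EdgeR, which averages the 2 groups of each side on the log scale, gave log2 -6.04 (SE 1.35, adjusted p = 0.00576). Serpina9, known from germinal centre B cells, stood at 0.208, 0 and 0.107 CPM in tomato+ VEC, 0 in tomato- VEC, 0, 0.098 and 3.38 CPM in tomato+ cTEC and 23.9, 6.86 and 3.77 CPM in tomato- mTEC. It was 110-fold lower in VEC than in TEC (counting interval 37.5 to 538, from 3 counts in VEC; edgeR adjusted p = 0.00869), and 48.8-fold without tomato- mTEC replicate 1. Serpina7, the thyroxine-binding globulin, had no count in VEC, stood at 0, 0 and 6.75 CPM in tomato+ cTEC and at 147, 11.9 and 0.401 CPM in tomato- mTEC, and was at least 478-fold lower in VEC (edgeR adjusted p = 0.0182), or at least 61.9-fold without tomato- mTEC replicate 1. EdgeR called neither Serpina9 (adjusted p = 0.356) nor Serpina7 (adjusted p = 0.377) between tomato+ cTEC and tomato- mTEC, whereas limma voom called Serpina9 (adjusted p = 0.0219). Without tomato+ cTEC replicate 3, Serpina7 and Serpina12 had no count left in tomato+ cTEC. Their edgeR calls in VEC against TEC were then lost (adjusted p = 0.99992 for both). Serpina11 was not tested and had counts in tomato- mTEC replicates 1 and 2 alone, at 8.77 and 5.81 CPM.

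Most clade B genes of chromosome 1 had nearly all their counts in epithelium. Of the 10 tested, 9 fell in VEC relative to TEC and 0 rose, where 21.8% of all genes fell, and the other member was Serpinb8. The 9 passed the low-count filter through the epithelial libraries and had to differ, so their number is a description. Serpinb5 encodes maspin, an epithelial serpin without protease inhibitor activity. It stood at 0, 0.131 and 0.107 CPM in tomato+ VEC, 0, 0.106 and 0 CPM in tomato- VEC, 198, 147 and 171 CPM in tomato+ cTEC and 78.2, 60.9 and 54.9 CPM in tomato- mTEC. It was 2147-fold lower in VEC than in TEC (95% counting interval 735 to 10415, from 3 counts in VEC; edgeR adjusted p = 3.86e-08), the lowest adjusted p of any serpin in that comparison. Tomato+ cTEC lay above tomato- mTEC without overlap, but this difference was not called (edgeR adjusted p = 0.0746).

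Serpinb2 encodes PAI-2, an inhibitor of urokinase. It stood at 0.104, 0.131 and 0 CPM in tomato+ VEC, 0 in tomato- VEC, 22.4, 9.02 and 78.2 CPM in tomato+ cTEC and 204, 270 and 56.0 CPM in tomato- mTEC. It fell in VEC relative to TEC by 2683-fold (counting interval 742 to 22161, from 2 counts in VEC; edgeR adjusted p = 1.43e-05) and in tomato+ VEC relative to tomato+ cTEC by 505-fold (counting interval 139 to 4172; edgeR adjusted p = 0.000779), or by 212-fold without tomato+ cTEC replicate 3. Between tomato+ cTEC and tomato- mTEC the libraries overlapped, with log2 -2.27 and SE 0.82 (edgeR adjusted p = 0.138, not called).

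Serpinb10 encodes bomapin, first known from bone marrow. It stood at 0 in all tomato+ VEC libraries, 9.02, 0 and 0 CPM in tomato- VEC, 42.5, 37.4 and 54.4 CPM in tomato+ cTEC and 89.9, 57.0 and 75.9 CPM in tomato- mTEC. The only VEC library with counts was tomato- VEC replicate 1. Platelet markers (174 CPM), Lyz2 (43.2 CPM) and Prox1 (4.34 CPM) were also highest there within the group. The part of such cells was not tested. Serpinb10 was at least 400-fold lower in tomato+ VEC than in tomato+ cTEC (edgeR adjusted p = 0.00796), and it fell in VEC relative to TEC (edgeR adjusted p = 0.00182). Serpinb2 and Serpinb10 share 243 words of 50 bases, 10.4% and 6.97% of those in their transcripts.

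Serpinb12 stood at 0, 0.131 and 0.214 CPM in tomato+ VEC, 0, 0 and 0.112 CPM in tomato- VEC, 0, 11.1 and 24.2 CPM in tomato+ cTEC and 65.3, 152 and 114 CPM in tomato- mTEC. It fell in VEC relative to TEC (edgeR adjusted p = 0.000217) and in tomato+ VEC relative to tomato+ cTEC (edgeR adjusted p = 0.0141), the second call being lost without tomato+ VEC replicate 1 (0.0503) and with limma voom (0.155). Serpinb11 had 1 count in VEC, in tomato+ VEC replicate 1, and stood at 6.05, 11.5 and 31.8 CPM in tomato+ cTEC and 11.7, 5.58 and 16.2 CPM in tomato- mTEC. It fell in VEC relative to TEC (edgeR adjusted p = 0.000133) and in tomato+ VEC relative to tomato+ cTEC (edgeR adjusted p = 0.00280). Serpinb7, a keratinocyte inhibitor of lysosomal and skin proteases, stood at 0, 0 and 29.1 CPM in tomato+ cTEC and 34.2, 30.7 and 13.4 CPM in tomato- mTEC, with 2 counts in VEC. It fell in VEC relative to TEC by 472-fold (counting interval 130 to 3901, edgeR adjusted p = 0.00388). EdgeR did not keep this call without tomato+ cTEC replicate 3, when tomato+ cTEC held no count.

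The Serpinb3 copies, counterparts of the human squamous cell carcinoma antigens, were low and uneven. Serpinb3c stood at 0.346 to 0.392 CPM in tomato+ cTEC and 4.53, 20.3 and 2.48 CPM in tomato- mTEC, and Serpinb3d at 10.8, 3.72 and 1.39 CPM in tomato+ cTEC and 0, 0 and 2.40 CPM in tomato- mTEC. Serpinb3b stood at 1.28, 2.35 and 0 CPM in tomato+ cTEC and 0.289, 4.88 and 0.0802 CPM in tomato- mTEC. All 3 fell in VEC relative to TEC (edgeR adjusted p = 0.00215 for Serpinb3c, 0.0172 for Serpinb3d and 0.0212 for Serpinb3b). The call of Serpinb3b was lost without tomato+ VEC replicate 1 or 3 or tomato- mTEC replicate 2 (adjusted p up to 0.0618). That of Serpinb3d was lost without tomato- mTEC replicate 3 (edgeR adjusted p = 0.972), when tomato- mTEC held no count. Serpinb3a, not tested because only 2 libraries held more than a few counts, stood at 43.9, 81.6 and 0.173 CPM in tomato+ cTEC and 0.0802 to 0.193 CPM in tomato- mTEC. Serpinb13 was not tested and stood at 6.25 CPM in tomato- mTEC replicate 3, with 1 count elsewhere.

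Serpinb8, whose human counterpart inhibits furin, had counts in both cell types. It stood at 0, 9.94 and 0.107 CPM in tomato+ VEC, 24.4, 16 and 16.5 CPM in tomato- VEC, 14.8, 14.8 and 23.2 CPM in tomato+ cTEC and 36.2, 12.0 and 37.9 CPM in tomato- mTEC. It was not called by edgeR in any comparison (VEC against TEC, adjusted p = 0.255), but limma voom called it lower in VEC (adjusted p = 0.00960). Tomato+ VEC replicate 2 held 98.9% of the level in that group, and without this library edgeR gave an adjusted p of 0.00713 between tomato+ and tomato- VEC and of 0.000436 between VEC and TEC.

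Other genes of stratified epithelium were set beside this group. Of 16 keratinocyte genes listed, 7 had enough counts to be tested. These 7 fell in VEC relative to TEC (21.8% of all genes fell), where a gene that passed the low-count filter through TEC alone had to differ. Krtdap (log2 -10.91, edgeR adjusted p = 4.39e-08) and Dmkn (log2 -9.02, edgeR adjusted p = 5.73e-06) were among them. The summed level of the 15 listed genes in the table was 4.19 to 7.71 CPM in tomato+ VEC, 4.90 to 7.73 CPM in tomato- VEC, 98.8 to 338 CPM in tomato+ cTEC and 726 to 913 CPM in tomato- mTEC.

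The promoters of Serpinb5 and Serpinb2 are shown because these 2 genes had the lowest adjusted p among the chromosome 1 members in VEC against TEC. They lie at chr1:106860925-106861224 and chr1:107511173-107511472 on the plus strand (RefSeq, GRCm38.p6), with the capitals as above. A second RefSeq start of Serpinb2 overlaps this window and is not printed.
Serpinb5: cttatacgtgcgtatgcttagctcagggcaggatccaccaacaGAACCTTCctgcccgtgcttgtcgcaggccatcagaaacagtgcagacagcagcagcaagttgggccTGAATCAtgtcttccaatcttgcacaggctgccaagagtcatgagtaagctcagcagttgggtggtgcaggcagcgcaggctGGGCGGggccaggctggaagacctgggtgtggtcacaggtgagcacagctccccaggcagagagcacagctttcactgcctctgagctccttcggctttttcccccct
Serpinb2: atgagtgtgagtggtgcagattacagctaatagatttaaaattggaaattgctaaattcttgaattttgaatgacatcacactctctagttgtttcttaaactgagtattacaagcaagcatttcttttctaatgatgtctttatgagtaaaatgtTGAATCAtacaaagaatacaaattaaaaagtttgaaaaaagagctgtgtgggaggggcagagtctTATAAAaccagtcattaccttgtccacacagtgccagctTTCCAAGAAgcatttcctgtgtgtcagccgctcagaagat
Both windows held the AP-1 letters TGAATCA, starting 140 bases before the start site in Serpinb5 and 94 bases before it in Serpinb2. Serpinb2 also held a TATA box starting 29 bases before its start site and STAT letters starting at base 11 after it, and Serpinb5 a GC box starting 58 bases before and an inverted heat shock unit starting 207 bases before.

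Over all serpin promoters in RefSeq, 52 of the 63 members had at least 1 window, 61 windows in all. AP-1 letters occurred in 12 of these 61 windows (19.7%), against 7.81% of 32851 mouse promoter windows of the same length. In the clade B genes of chromosome 1 they occurred in 8 of 13 windows, in those of chromosome 13 in 0 of 18, and in the Serpina1 copies in 4 of 6. TATA boxes occurred in 29.5% of serpin windows and 13.6% of all, and in 9 of 13 windows of the chromosome 1 group against 2 of 18 of the chromosome 13 group. STAT letters occurred in 18.0% and 8.30%, inverted heat shock units in 9.84% and 7.86%, and GC boxes in 13.1% and 35.7%, serpin windows given before all windows. Windows of copies share ancestry and are not independent, and a match is a match of letters only.

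The clade B genes of chromosome 13 held 66.9 to 70.5% of the summed serpin CPM in tomato+ VEC, 62.4 to 67.4% in tomato- VEC, 38.6 to 43.1% in tomato+ cTEC and 52.5 to 66.0% in tomato- mTEC. Of 8 tested, edgeR called 1 higher (Serpinb9) and 1 lower (Serpinb6c) in VEC relative to TEC, where 14.4% of all genes were higher and 21.8% lower. In tomato+ cTEC relative to tomato- mTEC, 4 of 8 fell and 0 rose (5.1% and 2.73% of all genes). Serpinb1a, an inhibitor of neutrophil elastase, cathepsin G and proteinase 3, stood at 221, 335 and 294 CPM in tomato+ VEC, 656, 415 and 764 CPM in tomato- VEC, 83.9, 111 and 161 CPM in tomato+ cTEC and 843, 1674 and 1650 CPM in tomato- mTEC. The 4 groups did not overlap. It fell in tomato+ cTEC relative to tomato- mTEC (log2 -3.55, SE 0.37, edgeR adjusted p = 0.000239), a call that held whichever library was left out, and rose in tomato+ VEC relative to tomato+ cTEC (log2 1.26, SE 0.34, edgeR adjusted p = 0.0189). The second call was lost without tomato+ cTEC replicate 1 (0.0617) and with limma voom (0.110).

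In tomato+ VEC relative to tomato- VEC, Serpinb1a was not called (log2 -1.11, SE 0.34; edgeR adjusted p = 0.127). Over both VEC groups against both TEC groups it differed by log2 0.04 (SE 0.23, edgeR adjusted p = 0.934). The contrasts within VEC and within TEC differed from each other by log2 2.44 (SE 0.48, edgeR adjusted p = 0.0204), and Serpinb1a was the only serpin called by edgeR in this test, where 3.08% of all genes were (1.54% higher and 1.54% lower). The median of the 41 was log2 0.70 there, against 0.0004 over all genes. That call was lost without tomato+ cTEC replicate 1 or tomato- mTEC replicate 2 or 3 (adjusted p up to 0.0577).

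Serpinb1b and Serpinb1c, the copies of Serpinb1a, also fell in tomato+ cTEC relative to tomato- mTEC. Serpinb1c stood at 14.1, 27.1 and 18.6 CPM in tomato+ VEC, 41.4, 29.3 and 51.8 CPM in tomato- VEC, 6.42, 6.47 and 13.8 CPM in tomato+ cTEC and 51.8, 106 and 104 CPM in tomato- mTEC. It fell in tomato+ cTEC relative to tomato- mTEC (log2 -3.29, SE 0.52, edgeR adjusted p = 0.00335). Serpinb1b stood at 3.95, 6.54 and 4.61 CPM in tomato+ VEC, 10.4, 6.37 and 14.1 CPM in tomato- VEC, 4.59, 5.78 and 7.45 CPM in tomato+ cTEC and 24.0, 34.3 and 33.7 CPM in tomato- mTEC. Its fall in tomato+ cTEC relative to tomato- mTEC (log2 -2.37, SE 0.63, edgeR adjusted p = 0.0421) was lost with no low-count filter and in 8 of the 12 leave-outs, those of any TEC library and of tomato- VEC replicates 1 and 3 (up to 0.155).

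The count of Serpinb1c was 5.85% to 8.56% of that of Serpinb1a in all 12 libraries, whatever the group. The count of Serpinb1b was 4.63% to 5.46% of it in tomato+ cTEC, 2.05% to 2.85% in tomato- mTEC, 1.56% to 1.95% in tomato+ VEC and 1.53% to 1.85% in tomato- VEC. The share of Serpinb1b was thus higher in every tomato+ cTEC library than in any other. Of the 50-base words in their transcripts, Serpinb1c shares 2.75% and Serpinb1b 2.34% with Serpinb1a. Whether reads of Serpinb1a were counted for its copies was not tested.

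**Figure D5:**
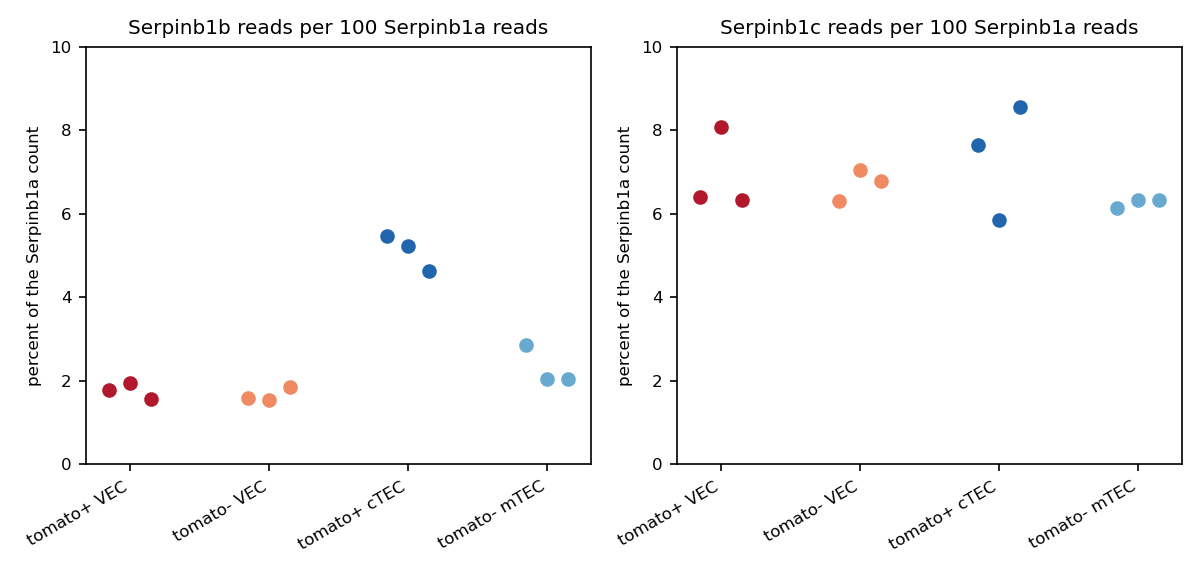
Counts of Serpinb1b (left) and Serpinb1c (right) as a percent of the Serpinb1a count in each library (points), by group. The share of Serpinb1c spans 5.85% to 8.56% with no order of the groups, and that of Serpinb1b is highest in the 3 tomato+ cTEC libraries.

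Serpinb9 encodes an inhibitor of granzyme B that protects cells from cytotoxic granules. It stood at 265, 278 and 423 CPM in tomato+ VEC, 301, 244 and 363 CPM in tomato- VEC, 104, 65.8 and 124 CPM in tomato+ cTEC and 182, 241 and 194 CPM in tomato- mTEC. Every VEC library lay above every TEC library, and Serpinb9 rose in VEC relative to TEC (log2 1.14, SE 0.20, edgeR adjusted p = 0.000941) and in tomato+ VEC relative to tomato+ cTEC (log2 1.72, SE 0.29, edgeR adjusted p = 0.00130). It fell in tomato+ cTEC relative to tomato- mTEC (log2 -1.07, SE 0.29, edgeR adjusted p = 0.0416). This last call was lost with no low-count filter and in 8 of the 12 leave-outs, those of any TEC library and of tomato- VEC replicates 1 and 3 (up to 0.142). Between tomato+ and tomato- VEC the difference was log2 0.09 (SE 0.28, edgeR adjusted p = 0.939).

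Serpinb6a, an inhibitor of cathepsin G and other proteases inside the cell, stood at 401, 311 and 426 CPM in tomato+ VEC, 703, 576 and 538 CPM in tomato- VEC, 440, 423 and 397 CPM in tomato+ cTEC and 314, 404 and 613 CPM in tomato- mTEC. It differed by log2 -0.68 between tomato+ and tomato- VEC (SE 0.25, edgeR adjusted p = 0.202), although the libraries did not overlap. It differed by log2 -0.08 between tomato+ cTEC and tomato- mTEC (SE 0.25, edgeR adjusted p = 0.930) and by log2 -0.15 between tomato+ VEC and tomato+ cTEC (SE 0.25, edgeR adjusted p = 0.731). Its neighbour Serpinb6b stood at 72.0, 1.05 and 30.4 CPM in tomato+ VEC, 50.8, 64.0 and 52.0 CPM in tomato- VEC, 82.9, 78.2 and 80.8 CPM in tomato+ cTEC and 197, 255 and 178 CPM in tomato- mTEC. All TEC libraries of Serpinb6b lay above all VEC libraries, a difference of log2 -1.57 (SE 0.59) that did not pass (edgeR adjusted p = 0.0549), while DESeq2 (adjusted p = 0.0114) and limma voom (adjusted p = 0.00420) called it.

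Serpinb6c stood at 9.35, 8.5 and 11.5 CPM in tomato+ VEC, 21.9, 27.4 and 16.9 CPM in tomato- VEC, 51.7, 48.7 and 74.5 CPM in tomato+ cTEC and 10.4, 19.6 and 41.6 CPM in tomato- mTEC. It fell in tomato+ VEC relative to tomato+ cTEC (log2 -2.58, SE 0.56, edgeR adjusted p = 0.00623) and in VEC relative to TEC (log2 -1.34, SE 0.38, edgeR adjusted p = 0.0158), the second call being lost without replicate 3 of either TEC group (up to 0.0636). Serpinb9b was spread over the groups by single libraries, at 3.12, 36.8 and 4.50 CPM in tomato+ VEC, 2.67, 2.23 and 38.6 CPM in tomato- VEC, 0.734, 0.196 and 1.21 CPM in tomato+ cTEC and 13.4, 110 and 2.73 CPM in tomato- mTEC. Serpinb9c to Serpinb9g, Serpinb6d and Serpinb6e were not tested, and none had more than 172 counts in all. Of the words in Serpinb9f transcripts 78.7% occur in another gene, and of those in Serpinb9g 54.8%.

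Serpins were uneven between replicates in places. Of the 45 serpins with a mean of at least 1 CPM in tomato- mTEC, 9 (20%) had at least 80% of that level in a single library, against 7.84% of all genes at this level. The share was 3 of 31 in tomato+ cTEC (9.68%, against 5.64% of all genes), 3 of 24 in tomato+ VEC (12.5%, against 14.8%) and 5 of 27 in tomato- VEC (18.5%, against 10.7%). In tomato- mTEC these were Serpina7, Serpina3b, Serpina3k and Serpinb9c in replicate 1, Serpina1b, Serpinb3b and Serpinb9b in replicate 2, and Serpinb13 and Serpinb9d in replicate 3. A fitted difference of such a gene rests on that library.

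Of 28 tested proteases in a list drawn up around serpin targets, 4 fell in tomato+ VEC relative to tomato- VEC and 0 rose. Their median was log2 -0.96 (1.08% of all genes fell and 0.568% rose). Not every listed protease, Prss16 for example, is known as a serpin target, and inhibition was not tested. Ctsl, which encodes cathepsin L, averaged 1020 ± 120 CPM in tomato+ VEC and 5718 ± 857 CPM in tomato- VEC (SD, n = 3 each; log2 -2.49, SE 0.29, edgeR adjusted p = 0.00116). Ctsh (log2 -7.66, edgeR adjusted p = 0.000400), C1s as given above and Ctsb (log2 -1.11, edgeR adjusted p = 0.0369) fell as well. In tomato+ cTEC relative to tomato- mTEC, 2 rose and 6 fell (2.73% and 5.1% of all genes). Prss16, the thymus-specific serine protease, averaged 1075 ± 245 CPM in tomato+ cTEC and 17.8 ± 2.66 CPM in tomato- mTEC (SD, n = 3 each; log2 5.92, edgeR adjusted p = 3.38e-06), and Ctsl rose by log2 1.99 (edgeR adjusted p = 0.00198). Ctsh fell by log2 6.05 (edgeR adjusted p = 0.000485) and Casp1 by log2 2.35 (edgeR adjusted p = 0.00109). In VEC relative to TEC, 3 of the 28 rose and 12 fell (14.4% and 21.8% of all genes).

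Of 24 tested cofactors and receptors that assist or clear serpins, 1 rose and 1 fell in tomato+ VEC relative to tomato- VEC (0.568% and 1.08% of all genes). Thbd, which encodes thrombomodulin, averaged 1057 ± 318 CPM in tomato+ VEC and 252 ± 24.1 CPM in tomato- VEC (SD, n = 3 each; log2 2.07, edgeR adjusted p = 0.00258). Vldlr, a receptor that takes up complexes of serpins and proteases, fell by log2 7.64 (edgeR adjusted p = 0.000938). In tomato+ cTEC relative to tomato- mTEC both genes rose, Thbd by log2 3.36 (edgeR adjusted p = 0.000102) and Vldlr by log2 3.88 (edgeR adjusted p = 0.00778), among 5 that rose and 2 that fell (2.73% and 5.1% of all genes). The contrast of Vldlr differed between VEC and TEC by log2 -11.52 (edgeR adjusted p = 0.000413). In VEC relative to TEC, where 14.4% of all genes rose and 21.8% fell, 6 of the 24 rose and 10 fell, among them Hspg2, the heparan sulphate proteoglycan perlecan, with a rise of log2 4.29 (edgeR adjusted p = 2.47e-07), and the syndecan Sdc4, which fell by log2 5.05 (edgeR adjusted p = 4.55e-07).

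Of 24 tested protease inhibitors of other families, 6 rose and 10 fell in VEC relative to TEC, with a median of log2 -1.45 (14.4% and 21.8% of all genes). Tfpi, the inhibitor of the tissue factor pathway, rose by log2 4.03 (edgeR adjusted p = 1.48e-07), while the Kunitz inhibitor Spint1 (log2 -8.90, edgeR adjusted p = 1.48e-06) and the whey acidic protein Wfdc2 (log2 -11.95, edgeR adjusted p = 9.14e-06) fell. Between tomato+ and tomato- VEC 1 of 24 was called (1.65% of all genes), Spint2, which averaged 156 ± 8.65 CPM in tomato+ VEC and 731 ± 154 CPM in tomato- VEC (SD, n = 3 each; log2 -2.23, edgeR adjusted p = 0.000169). Spint2 fell in tomato+ cTEC relative to tomato- mTEC as well (log2 -1.28, edgeR adjusted p = 0.00301). For the difference between the contrasts within VEC and within TEC, 1 of the 28 listed proteases, 1 of the 24 cofactors and 0 of the 24 other inhibitors were called higher by edgeR, and 3, 3 and 2 lower (1.54% of all genes in either direction).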

How the data were processed

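Poly(A) RNA for 12 thymic stromal libraries (4 groups of 3) was prepared with the SMARTer kit for low input, per the labels' protocols. Reads were aligned with TopHat2 2.0.10 to mm9, per the submitters' processing notes. For the counter, annotation, filters and use of strand, the sources used here give nothing. The authors deposited raw counts per gene symbol and RPKM values, per the file headers. The deposited RPKM equalled count over column total and a fixed gene length for 180417 of 180417 values, within a relative tolerance of 0.0001.

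Counts were filtered with filterByExpr (minimum count 10; 14792 genes left), scaled by TMM and tested with edgeR 4.0.16 (R 4.3.3) in a quasi-likelihood fit of all 12 libraries with a term per group, with Benjamini-Hochberg adjustment over all genes and calls at adjusted p under 0.05. The common dispersion was 0.624 (8 residual degrees of freedom). CPM are TMM-scaled. Errors of fold changes are the fold divided by the root of F. Folds that rest on counts compare counts summed over the libraries of a side, so a group with more counts weighs more. EdgeR's test of VEC against TEC instead averages the log levels of the 2 groups of a side. Folds against 1 to 3 counts have 95% counting intervals, and those against 0 use a floor of 3 counts. Both cover counting error only. Scripts were tested on simulated data.

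Alternatives were DESeq2 1.42.0, limma voom (limma 3.58.1), scaling by relative log expression, no filter on low counts, a replicate block, only the 2 groups compared, and leaving out each library. The folds that rest on counts were also computed without each library of the higher side, an alternative chosen after seeing the data. Fold changes are given for called serpins and, per comparison, for the 5 others with the highest group mean. From the other gene lists (proteases, cofactors, other inhibitors, collagen, liver, keratinocyte and marker genes of other cells) up to 4 called genes with the smallest p could be named. Shared words come from GENCODE M21 transcripts. Promoters and chromosomes come from RefSeq (GRCm38.p6), a build other than that of the counts. The members, lists and tests were chosen with earlier results of these data known. Of the tested serpins, 1 enters all counts, sums and medians but is not reported here by itself or plotted by itself.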

Additional observations from a re-analysis of the deposited data

Results flagged for a closer look

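Serpinb1a differed between the cell types in how it followed the sort. The contrast of tomato+ VEC with tomato- VEC (log2 -1.11, SE 0.34) minus that of tomato+ cTEC with tomato- mTEC (log2 -3.55, SE 0.37) was log2 2.44 (SE 0.48, edgeR adjusted p = 0.0204). In either cell type every reporter-positive library lay below every reporter-negative one, but only the epithelial contrast was called by itself. It was picked out because the contrast differed between cell types in a test of that difference. The call was lost without tomato+ cTEC replicate 1 or tomato- mTEC replicates 2 or 3 (adjusted p up to 0.0577). Reporter and compartment cannot be told apart within epithelium.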

How the results depend on the processing

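Counts of called serpins depended on the tool. Within VEC, edgeR called 0, DESeq2 6 and limma voom 2, with 0 to 2 over the leave-outs. Within TEC, edgeR called 8, DESeq2 14, limma voom 19 and a fit of only the 2 groups 18, with 3 to 11 over the leave-outs. For the difference between these contrasts the counts were 1 (edgeR), 6 (DESeq2) and 3 (limma voom), with 0 to 2 over the leave-outs. In tomato+ VEC against tomato+ cTEC and in VEC against TEC, edgeR called 18 and 29, with 15 to 19 and 24 to 34 over the leave-outs. Serpins at 1 CPM or more numbered 22 (tomato+) and 25 (tomato-) per VEC library, 28.7 per cTEC library and 39.7 per mTEC library. Over all genes, edgeR called 244 within VEC, 1158 within TEC and 456 for their difference. DESeq2 gave 1232, 1973 and 1407, limma voom 601, 2219 and 1309, and the fits of 2 groups 112 and 2487. Over the leave-outs, which tested 15408 to 15890 genes, edgeR called 174 to 394 within VEC, the most without tomato+ VEC replicate 3. Within TEC it called 428 to 1193 genes, and for the difference of these contrasts 159 to 491. In tomato+ VEC against tomato+ cTEC and in VEC against TEC it called 2375 to 3231 and 4568 to 5501.

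Replicate numbers did not pair the libraries (correlations of same-numbered deviations -0.0137 to 0.0687). With the replicate block, serpins called numbered 0, 6, 16, 28 and 1 in the 5 comparisons. All genes called numbered 178, 814, 2869, 4928 and 269 of 14792 in the same order. The 81 named differences had 1412 alternative values, of which 1303 kept direction and call, 84 lost a call, 13 gained one and 12 changed sign. None of those 12 belonged to a called difference, and the causes were not tested. Serpinb1a in VEC against TEC was log2 -0.092 with DESeq2 and with relative log expression scaling, and -0.060 to 0.21 over the leave-outs (-0.024 without tomato- VEC replicate 3, -0.026 without tomato+ cTEC replicate 1). Over the leave-outs, Serpinb9 within VEC was -0.11 to 0.27. Serpinb6a was -0.26 to 0.25 within TEC (0.0012 without tomato+ cTEC replicate 3) and -0.17 to 0.061 between the tomato+ groups. Serpina3g was -0.30 to 1.97 between the tomato+ groups, -0.067 to 1.09 in VEC against TEC and -0.47 to 1.75 for the difference of contrasts, each lowest without tomato+ VEC replicate 1.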
